A study of Homo sapiens with 18 samples.

Results

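DDIT4 (ENST00000307365), GADD45A (ENST00000370986), SLC38A2 (ENST00000256689), BHLHE40 (ENST00000256495) and YOD1 (ENST00000367084) are genes of cellular stress responses. Here they are described by the nascent RNA that ran past their annotated 3′ ends. They are 5 of the 13051 transcripts in a table of readthrough reads from K562 cells, and they held 1911 of its 447434 reads. They were picked by name because of how their readthrough reads differed between conditions in these same libraries. Their levels and changes are therefore given as a description, without a test.

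K562 is an established line of chronic myeloid leukaemia, driven by the fusion kinase Bcr-Abl1. RNA bound to chromatin was ligated to an adapter at its 3′ end and sequenced as long reads, so that the end of a read marks where RNA polymerase II stood. A readthrough read ends more than 100 nt past the last exon of the transcript of a gene that reaches farthest. The study asked whether stress and targeted chemotherapy make polymerase run past the end of genes.

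There were 18 libraries, 3 from each of 6 conditions. The CTRL and CTRLim cells were both untreated, and the study prepared CTRLim together with the imatinib libraries. KCl 45min cells were kept in 110 mM KCl for 45 min, a hyperosmotic shock. JTE 1h cells received 5 µM JTE-607, an inhibitor of the CPSF73 endonuclease that cuts nascent RNA at the poly(A) site, for 1 h. IM 1h and IM 18h cells received 1 µM imatinib, an inhibitor of Bcr-Abl1, for 1 h and 18 h. All groups are cultures of 1 cell line, and the study describes the 3 libraries of a condition as biological replicates.

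When a poly(A) signal is transcribed, the cleavage complex cuts the nascent RNA behind it, and polymerase is released some way downstream. Under hyperosmotic shock, heat or viral infection this step can fail, and transcripts then extend far past the gene. Each of the 5 genes belongs to a known stress response. DDIT4 (REDD1) restrains the growth-promoting kinase complex mTORC1 when oxygen, energy or amino acids are short. GADD45A acts in cell cycle arrest and DNA repair and is induced by DNA damage and by the integrated stress response. SLC38A2 (SNAT2) imports small neutral amino acids with sodium and is induced both by amino acid starvation and by hyperosmotic medium. BHLHE40 (DEC1) is a transcriptional repressor that acts in the circadian clock and the hypoxia response. YOD1 is a deubiquitinase of the OTU family that works with the segregase p97/VCP on misfolded proteins.

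The 5 genes lie on 4 chromosomes, and all but YOD1 have long stretches without a protein-coding gene of the same strand behind them. On GRCh38, with GENCODE 44 as the annotation, DDIT4 spans chr10:72273924-72276036 on the plus strand in 3 exons, and its readthrough reads end at 72276137 or beyond. GADD45A spans chr1:67685201-67688334 on the plus strand in 4 exons, and BHLHE40 chr3:4979437-4985323 on the plus strand in 5 exons. SLC38A2 spans chr12:46358188-46372773 on the minus strand in 16 exons, and YOD1 chr1:207043849-207052980 on the minus strand in 4 exons. Behind DDIT4 the next protein-coding gene on the same strand begins at 416107 nt, behind GADD45A at 1879588 nt and behind BHLHE40 at 136926 nt. Behind SLC38A2 it begins at 88171 nt and is the paralogue SLC38A1. Behind YOD1 it is C1orf116, at 11093 nt, against a median of 47905 nt over all annotated transcripts of the table. For none of the 5 did the point where counting begins fall inside another protein-coding gene of the same strand. That was the case for 8.10% of all annotated transcripts. Noncoding genes entered neither these distances nor this share. YOD1 lies within the span of PFKFB2, a gene of the opposite strand, and the sources used here do not say whether counting used the strand, so reads of PFKFB2 in this span cannot be told apart from those of YOD1. GNG12, on the opposite strand, ends 13141 nt behind GADD45A.

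Cleavage at the end of a gene keeps its transcript from reaching the counted stretch, so the poly(A) signals are shown first. Reads that end inside the gene are not counted either. The hexamer AATAAA is in capitals, within 30 bases of the last exon of GRCh38 read 5′ to 3′ on the strand of the gene. The windows are chr10:72276003-72276032 for DDIT4, chr1:67688296-67688325 for GADD45A, chr12:46358193-46358222 for SLC38A2 and chr1:207043851-207043880 for YOD1.
DDIT4: ttttacttttctAATAAAcatgtttgttaa
GADD45A: cacaatacctacAATAAActggtatgaata
SLC38A2: taactgaactaaAATAAAtacatgcttaat
YOD1: ttgtttcaaaggAATAAAtgaagtgaaaac

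In DDIT4, GADD45A, SLC38A2 and YOD1 the hexamer was followed by 16, 21, 17 and 14 bases up to the annotated end. BHLHE40 had neither AATAAA nor ATTAAA in its last 50 bases, where 74.5% of the 12702 transcripts with sequence had one of them. The letters do not show how efficiently a site is cut.

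The stretch behind the end is shown because the cleavage complex also reads GU-rich elements there. The first 100 bases behind the annotated ends of 4 of the genes follow, 5′ to 3′ on the strand of the gene, with every run of 6 or more G or T in capitals. They are chr10:72276037-72276136, chr1:67688335-67688434, chr3:4985324-4985423 and chr1:207043749-207043848 of GRCh38, in the order printed.
DDIT4: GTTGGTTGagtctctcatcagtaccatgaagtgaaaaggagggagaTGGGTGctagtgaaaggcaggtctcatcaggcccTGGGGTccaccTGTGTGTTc
GADD45A: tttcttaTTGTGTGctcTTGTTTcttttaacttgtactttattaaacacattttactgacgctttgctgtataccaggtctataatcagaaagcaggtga
BHLHE40: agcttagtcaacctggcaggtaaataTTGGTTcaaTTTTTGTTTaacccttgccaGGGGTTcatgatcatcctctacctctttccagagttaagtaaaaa
YOD1: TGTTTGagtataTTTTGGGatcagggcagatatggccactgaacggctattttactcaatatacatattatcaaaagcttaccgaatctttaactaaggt

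These 4 windows each held such a run, as did 80.8% of all transcripts. The runs added up to 28 bases behind DDIT4, more than in 91.9% of transcripts. They added up to 21 bases behind BHLHE40 and to 13 each behind GADD45A and YOD1. In the first 1000 bases behind the end the GC content was 51.0% for DDIT4, 47.8% for BHLHE40, 41.3% for GADD45A and 35.2% for YOD1, around a median of 45.7%. Of these 4, YOD1 lay nearest to an edge of the range, with 8.32% of transcripts below it. The last exon measured 5875 nt in YOD1, longer than in 94.5% of transcripts, 3022 nt in SLC38A2, 2488 nt in BHLHE40, 1342 nt in DDIT4 and 674 nt in GADD45A, with a median of 1361 nt over all.

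Promoters of RefSeq (250 bases before to 50 after the start) were on file for 4 of the 5 genes, GADD45A being the one without. The letters of 6 short motifs of stress-related factors were looked for on both strands of each. The ATF4 composite TGATGNAA and the CRE core TGACGT were in none of the 4, and in 3.62% and 7.98% of all 35116 promoters. The hypoxia core ACGTG was in the promoters of DDIT4 and BHLHE40 (21.4% of all promoters), and the E-box CACGTG, which contains it, in that of BHLHE40 (7.26%). The AP-1 motif TGANTCA was in the YOD1 promoter (7.71%), and the NFAT core TGGAAA in those of DDIT4 and SLC38A2 (20.7%). No motif was in all 4. A match is only a match of letters, and sites outside this window were not looked for, so a missing motif says nothing about the rest of the gene.

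Depth and library set bear on all that follows. Each library held between 229855 and 1349556 reads after polyadenylated reads and splicing intermediates were removed, of which between 8422 and 57982 were readthrough reads. Levels are given per 1000000 of these library reads (RPM). Gene body reads were not used, so a level rises when cleavage fails more often and also when a gene is transcribed more. Mapped reads made up 40.5% to 44.1% of the raw reads of CTRL, KCl 45min and JTE 1h libraries, and 84.3% to 91.6% of those of CTRLim and the imatinib groups, which makes 2 library sets. Between the sets, library set and treatment cannot be told apart. CTRLim replicates 2 and 3 did not differ detectably beyond the sampling noise of their counts (chi-square per degree of freedom 1.03), while both differed from replicate 1 (1.32 and 1.40). In means and SDs of CTRLim they count as 1 sample, so that n = 2, whereas the edgeR fits behind each fold change, standard error and adjusted p against CTRLim took the 3 libraries as separate samples. With both as 1 sample, 154 in place of 196 transcripts were called in IM 18h against CTRLim and 21 in place of 50 in CTRLim against CTRL. No pair of IM 1h libraries differed detectably beyond sampling noise, so their spread may be technical. JTE 1h replicate 1 stood apart from the other JTE 1h libraries, as described for each gene. Readthrough reads made up 3.06% of its library reads, against 5.40% and 5.05% in replicates 2 and 3. In CTRL they made up 3.32% to 3.55%, so replicate 1 lay below every CTRL library in this share. Of the 14 K562 markers in the table, such as the globin genes and GATA1, all had reads, 7967 in total. HBG1 with 4159 and HBE1 with 2768 held most of them, while HBZ had 1, ALAS2 14 and GATA1 38. Markers of T cells, B cells, monocytes and epithelial cells had 13, 2, 1 and 5. Not all of these were in the table (2 of 5, 2 of 4, 1 of 4 and 2 of 3).

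**Figure D1:**
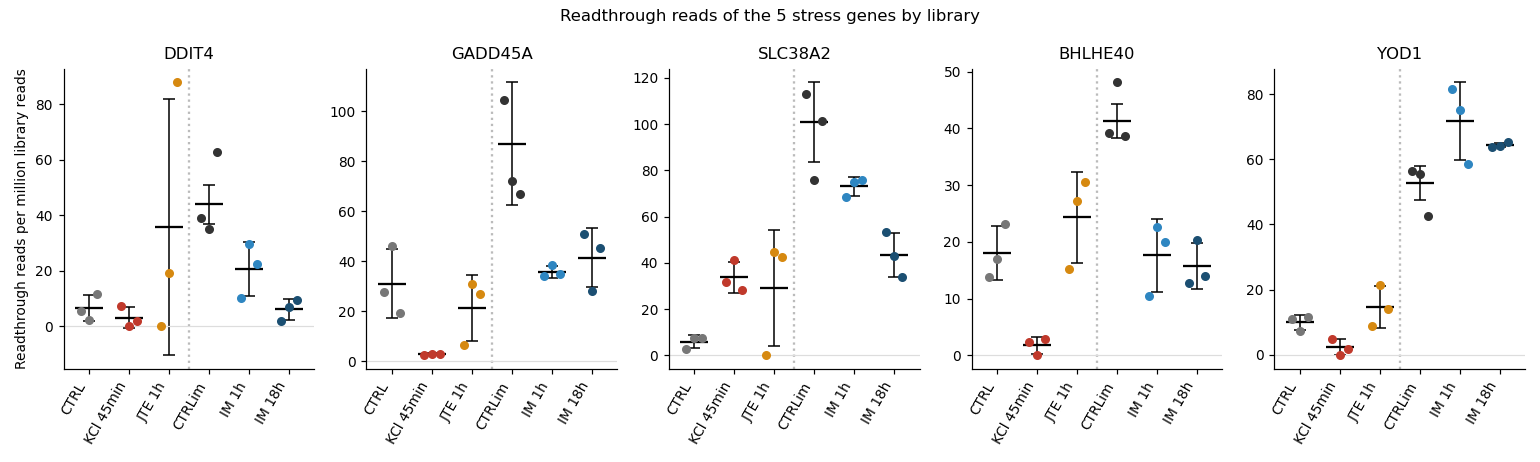
Readthrough reads per 1000000 library reads (linear axis, 1 scale per gene) of the 5 genes, with 1 point per library, a line at the mean and bars of 1 SD (n = 3, and n = 2 in CTRLim, where replicates 2 and 3 count as 1). The dotted line parts the 2 library sets. SLC38A2 is the gene that stood higher in KCl 45min than in CTRL, and DDIT4 in JTE 1h runs from 0 to 88.0 RPM.

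SLC38A2, the amino acid transporter, was the one gene of the 5 with more readthrough reads after hyperosmotic shock. The CTRL libraries gave 1, 3 and 2 reads, or 2.77, 7.31 and 7.73 RPM. The KCl 45min libraries gave 13, 13 and 30 reads, or 31.7, 41.4 and 28.4 RPM. Every KCl 45min library thus lay above every CTRL library, the means being 33.8 ± 6.77 and 5.94 ± 2.75 RPM (SD, n = 3 each). The reads pooled by condition gave a ratio of 5.40, with a 95% exact interval from 2.33 to 15.3 that covers counting error only, and edgeR gave a log2 fold change of 2.45 with a standard error of 0.646. The same KCl 45min libraries lay below every CTRLim library, so the direction turns with the untreated group chosen (log2 fold change -1.53 against CTRLim).

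In JTE 1h the 3 libraries of SLC38A2 gave 0, 23 and 49 reads, or 0, 44.7 and 42.7 RPM. Replicates 2 and 3 lay above all CTRL libraries and replicate 1, with no read, below them. In CTRLim the reads were 26, 41 and 50 (113, 75.9 and 102 RPM), in IM 1h 46, 43 and 61 (68.3, 75.01 and 76.0 RPM) and in IM 18h 50, 55 and 46 (53.2, 43.1 and 34.1 RPM). IM 1h overlapped with CTRLim, and IM 18h lay below both in every library. The log2 fold change of SLC38A2 was -0.35 (SE 0.219) at 1 h and -1.14 (SE 0.258) at 18 h against CTRLim. From lowest to highest mean the order was CTRL, JTE 1h, KCl 45min, IM 18h, IM 1h and CTRLim, and of the neighbours in it only IM 18h and IM 1h had libraries that did not overlap.

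DDIT4, the brake on mTORC1, had few readthrough reads in untreated CTRL cells and many in 1 JTE 1h library. The CTRL libraries gave 2, 1 and 3 reads, or 5.54, 2.44 and 11.6 RPM. The JTE 1h libraries gave 0, 10 and 101 reads, or 0, 19.4 and 88.0 RPM. Replicate 3 thus held 101 of the 111 reads, replicate 1 none, and the libraries overlapped with CTRL. The mean was 35.8 ± 46.2 RPM (SD, n = 3) against 6.53 ± 4.66 RPM in CTRL, and 9.72 RPM without replicate 3. The log2 fold change was 2.62 with a standard error of 0.913. In KCl 45min there were 3, 0 and 2 reads, or 7.31, 0 and 1.89 RPM, so that KCl 45min overlapped with CTRL, and the pooled ratio was 0.482, with a 95% exact interval from 0.116 to 1.90 for counting error.

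Under imatinib DDIT4 lay below CTRLim at 1 h and lower again at 18 h. The CTRLim libraries gave 9, 19 and 31 reads, or 39.2, 35.2 and 63.0 RPM. IM 1h gave 7, 17 and 18 reads, or 10.4, 29.7 and 22.4 RPM, and IM 18h gave 2, 9 and 13, or 2.13, 7.05 and 9.63 RPM. Each imatinib group lay wholly below the group before it. The means were 44.1 ± 7.01 (n = 2), 20.8 ± 9.73 (n = 3) and 6.27 ± 3.81 RPM (n = 3), and the log2 fold changes against CTRLim were -1.18 (SE 0.312) at 1 h and -2.78 (SE 0.402) at 18 h. The SD of CTRLim leaves out the difference between replicates 2 and 3 (35.2 and 63.0 RPM), which count as 1 sample in it. Per 1000000 readthrough reads in place of library reads, the highest IM 18h library (261) passed the lowest IM 1h library (238). Ordered by mean, the levels ran KCl 45min, IM 18h, CTRL, IM 1h, JTE 1h and CTRLim, and every pair of neighbours overlapped.

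GADD45A, which acts in growth arrest and DNA repair, was the gene of the 5 with most reads in CTRL and had few in KCl 45min. The CTRL libraries gave 10, 19 and 5 reads, or 27.7, 46.3 and 19.3 RPM. The KCl 45min libraries gave 1, 1 and 3 reads, or 2.44, 3.19 and 2.84 RPM. All KCl 45min libraries lay below all CTRL libraries, and pooled reads were 11.8-fold lower (95% exact interval 4.57 to 38.5). The log2 fold change was -3.39 with a standard error of 0.708. In JTE 1h the reads were 3, 16 and 31, or 6.53, 31.1 and 27.0 RPM, which overlapped with CTRL (log2 fold change -0.52, SE 0.602).

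CTRLim gave 24, 39 and 33 reads of GADD45A, or 104, 72.2 and 67.0 RPM. The imatinib libraries were lower and alike at both times, with 23, 22 and 28 reads at 1 h (34.2, 38.4 and 34.9 RPM) and 48, 36 and 61 reads at 18 h (51.1, 28.2 and 45.2 RPM). Neither time overlapped with CTRLim, and the times overlapped with each other. The means were 87.0 ± 24.6 (n = 2), 35.8 ± 2.25 (n = 3) and 41.5 ± 11.9 RPM (n = 3). The log2 fold change was -1.10 (SE 0.251) at 1 h and -0.92 (SE 0.273) at 18 h, and 0.20 (SE 0.242) from 1 h to 18 h. In the order KCl 45min, JTE 1h, CTRL, IM 1h, IM 18h and CTRLim, the libraries of neighbours did not overlap at either end and overlapped in between.

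BHLHE40, the transcriptional repressor, also had few reads in KCl 45min. CTRL gave 5, 7 and 6 reads, or 13.9, 17.1 and 23.2 RPM, and KCl 45min gave 1, 0 and 3, or 2.44, 0 and 2.84 RPM. The groups did not overlap and pooled reads were 7.78-fold lower in KCl 45min (95% exact interval 2.56 to 31.6). With 22 reads over these 6 libraries, BHLHE40 was under the minimum of 30 for the edgeR fit, as were DDIT4 with 11 and YOD1 with 14. JTE 1h gave 7, 14 and 35 reads, or 15.2, 27.2 and 30.5 RPM, and overlapped with CTRL (log2 fold change 0.48, SE 0.602).

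In CTRLim BHLHE40 had 9, 26 and 19 reads, or 39.2, 48.1 and 38.6 RPM. IM 1h had 7, 13 and 16 reads (10.4, 22.7 and 19.9 RPM) and IM 18h had 12, 26 and 19 (12.8, 20.4 and 14.1 RPM). All imatinib libraries lay below all CTRLim libraries and overlapped between the times. The log2 fold change was -1.27 (SE 0.330) at 1 h and -1.41 (SE 0.341) at 18 h. The means of 17.7 ± 6.44 and 15.7 ± 4.05 RPM (n = 3 each) were close to the 18.0 ± 4.75 RPM (n = 3) of the other untreated group, CTRL. Ordered by mean, BHLHE40 ran KCl 45min, IM 18h, IM 1h, CTRL, JTE 1h and CTRLim, with no overlap between the first and the last pair of neighbours.

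YOD1, the deubiquitinase, was the one gene of the 5 that stood higher under imatinib than in CTRLim. The CTRLim libraries gave 13, 30 and 21 reads, or 56.6, 55.5 and 42.7 RPM. IM 1h gave 55, 43 and 47 reads, or 81.7, 75.01 and 58.6 RPM, and IM 18h gave 60, 82 and 88, or 63.8, 64.2 and 65.2 RPM. Both imatinib groups lay above CTRLim in every library, by a small margin at 1 h (58.6 against 56.6 RPM). The log2 fold changes were 0.48 (SE 0.243) and 0.34 (SE 0.264). Per 1000000 readthrough reads, the lowest IM 1h library (1335) fell below the highest CTRLim library (1464), while IM 18h stayed above it (1718 and more).

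YOD1 had 4, 3 and 3 reads in CTRL (11.1, 7.31 and 11.6 RPM) and 2, 0 and 2 in KCl 45min (4.87, 0 and 1.89 RPM). The groups did not overlap, with pooled reads 4.32-fold lower in KCl 45min (95% exact interval 1.25 to 18.9). JTE 1h gave 4, 11 and 16 reads, or 8.70, 21.4 and 13.9 RPM, and overlapped with CTRL (log2 fold change 0.57, SE 0.684). By mean the order was KCl 45min, CTRL, JTE 1h, CTRLim, IM 18h and IM 1h. CTRL overlapped with JTE 1h, and IM 18h with IM 1h. The other neighbours did not overlap.

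Set beside all transcripts that reached the minimum of 30 reads in a comparison, SLC38A2 stood on the other side of CTRL from GADD45A, BHLHE40 and YOD1 in KCl 45min, and YOD1 on the other side of CTRLim from DDIT4, GADD45A and BHLHE40 under imatinib. In KCl 45min against CTRL, 1 of the 5 stood higher and 3 lower in every library and 1 overlapped, where 35.7% of 378 tested transcripts did not overlap, 7.67% being higher and 28.0% lower. The median log2 change of mean RPM + 1 was -1.76 over the 5 genes and -0.35 over all tested. DDIT4, BHLHE40 and YOD1 had 11, 22 and 14 reads here and are not among the tested transcripts. The median of the 5 was the value of YOD1. SLC38A2 had a larger change than 98.1% of the tested transcripts, and GADD45A a smaller one than all but 4.23%.

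In JTE 1h against CTRL all 5 overlapped, where 13.8% of 969 transcripts did not (12.0% higher and 1.86% lower). The median was 0.51 over the 5 genes and 0.45 over all tested. DDIT4 and SLC38A2 lay above 97.9% and 96.9% of transcripts, GADD45A above 6.30%, and BHLHE40 and YOD1 near the middle. In JTE 1h replicate 1 the 5 genes summed to 30.5 RPM, below every CTRL library (60.99 to 80.4 RPM), and in replicates 2 and 3 to 144 and 202 RPM. For DDIT4 and SLC38A2 the overlap with CTRL came from replicate 1, which had no read of either, while replicates 2 and 3 lay above every CTRL library.

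In IM 1h against CTRLim, YOD1 stood higher, DDIT4, GADD45A and BHLHE40 lower and SLC38A2 overlapped, where 18.4% of 988 transcripts did not overlap, 13.0% higher and 5.47% lower. The median was -1.05 over the 5 genes and 0.09 over all tested. GADD45A, BHLHE40 and DDIT4 had changes lower than all but 0.709%, 1.52% and 1.82% of transcripts. The change of YOD1 was less extreme, above that of 72.4% of transcripts. In IM 18h against CTRLim 4 of the 5 were lower and YOD1 higher, where 31.7% of 1386 did not overlap, 18.4% of them lower and 13.3% higher as shares of all tested. The medians were -1.20 and -0.07, and DDIT4 was lower than all but 0.361% of transcripts. YOD1 lay above 66.0% of them.

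Between the imatinib times, IM 18h lay below IM 1h in every library for DDIT4 (log2 fold change -1.60, SE 0.404) and SLC38A2 (-0.77, SE 0.200), where 34.8% of 1720 transcripts did not overlap, 8.49% being higher and 26.3% lower. The log2 fold changes of GADD45A, BHLHE40 and YOD1 were 0.20, -0.14 and -0.14 with overlapping libraries. The medians were -0.16 over the 5 genes and -0.27 over all tested. The comparisons against CTRLim share its libraries, as do those against CTRL, so they are not independent of each other.

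**Figure D2:**
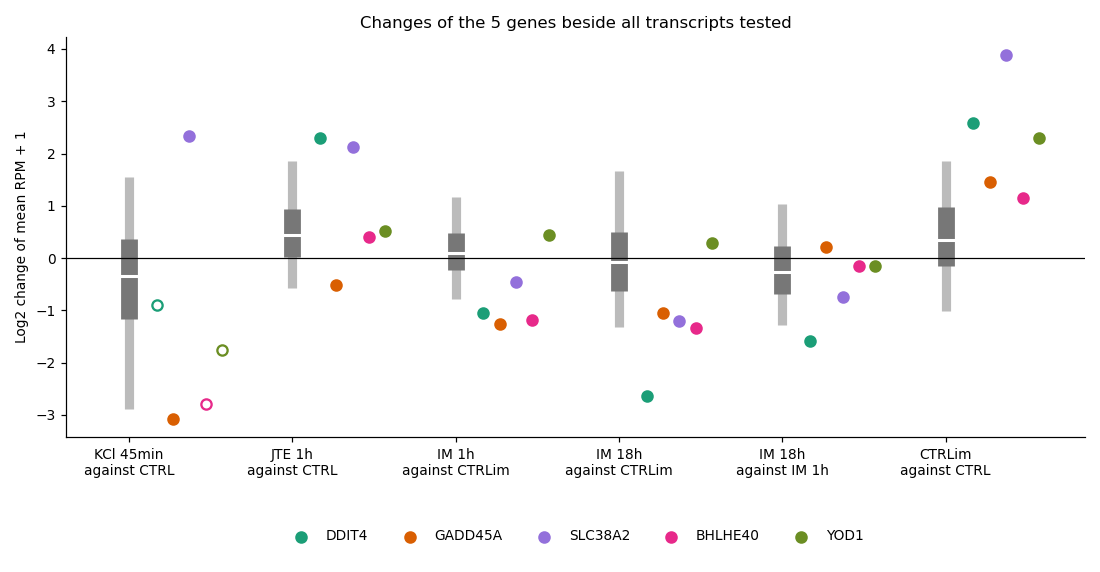
Log2 change of mean RPM + 1 (vertical axis) of the 5 genes in each comparison, as coloured points, beside all transcripts tested, shown as a light bar from the 5th to the 95th percentile, a dark bar from the 25th to the 75th and a white line at the median. Open points mark genes with fewer than 30 reads in that comparison. SLC38A2 lies apart from the other 4 in KCl 45min against CTRL, and all 5 lie above the median in CTRLim against CTRL.

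The untreated groups differed from each other in all 5 genes. All 5 genes were higher in every CTRLim library than in every CTRL library, where 32.2% of 472 transcripts did not overlap, 25.8% being higher and 6.36% lower in CTRLim. The log2 fold change was 3.95 (SE 0.469) for SLC38A2, 2.92 (SE 0.532) for DDIT4, 2.35 (SE 0.426) for YOD1, 1.27 (SE 0.375) for GADD45A and 1.26 (SE 0.389) for BHLHE40. The median of the 5 was 2.29 on the scale of mean RPM + 1, against 0.36 over all tested. This comparison was added after the data were seen, and the part of the library set in it was not tested. It sets a limit on any reading across sets. Against CTRL in place of CTRLim, the log2 fold change of DDIT4 in IM 1h was 1.77 in place of -1.18, and that of SLC38A2 in IM 18h was 2.85 in place of -1.14.

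Summed over the 5 genes, CTRLim held between 287 and 352 RPM, IM 1h between 205 and 241, IM 18h between 163 and 183, CTRL between 60.99 and 80.4 and KCl 45min between 37.9 and 48.7. The make-up of the sum differed as well. In KCl 45min SLC38A2 alone gave 56 of the 74 reads, and in CTRL GADD45A gave 34 of 74. In IM 18h YOD1 gave 230 of 607 reads and DDIT4 gave 24. In CTRLim no gene stood out to that degree, with between 54 and 117 reads each of 390.

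**Figure D3:**
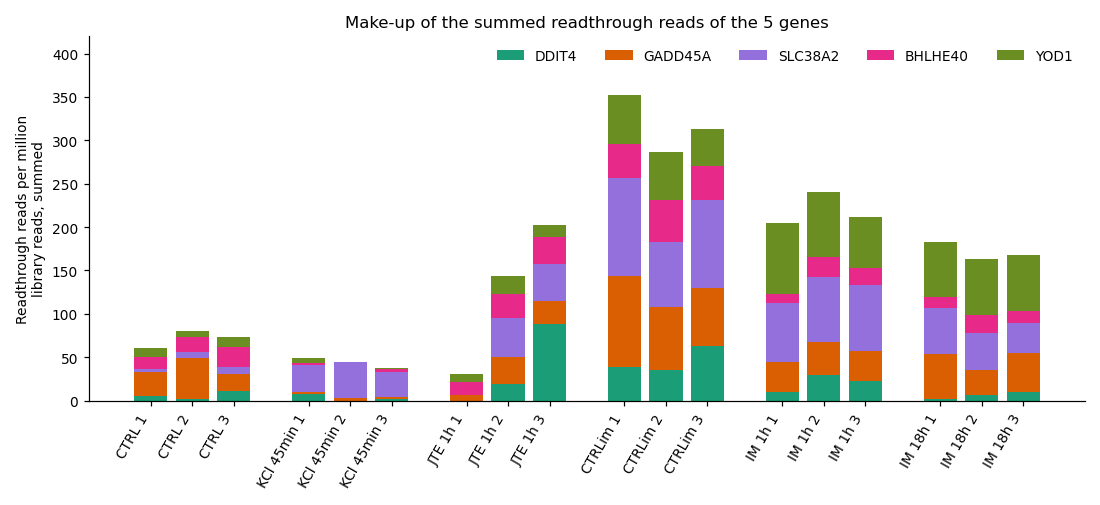
Readthrough reads per 1000000 library reads of the 5 genes, stacked for each of the 18 libraries from an axis that starts at 0. SLC38A2 makes up most of every KCl 45min bar, YOD1 is the largest block in the IM 18h bars, and JTE 1h replicate 1 has neither DDIT4 nor SLC38A2.

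To see which transcripts behaved most like each gene, 4 log2 changes were compared (KCl 45min and JTE 1h against CTRL, IM 1h and IM 18h against CTRLim) over 3479 other transcripts with at least 30 reads. Likeness is the root mean square distance, which is 0 for identical changes. NDUFAF4 (0.364) and PHGDH (0.367), the enzyme that opens serine synthesis, were nearest to DDIT4. APRT (0.105), a purine salvage enzyme, and SUV39H1 (0.314), a histone methyltransferase, were nearest to GADD45A.

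BCAT1 (0.226), which transaminates branched-chain amino acids, and COMMD2 (0.327) were nearest to SLC38A2. SF3B1 (0.210), a splicing factor, and UBL4A (0.272) were nearest to BHLHE40. For YOD1 they were the unmatched transcript ENST00000307768 (0.0627) and ZFP36L2 (0.0794), which promotes decay of AU-rich mRNAs. Among the 5 genes themselves, GADD45A and BHLHE40 were close to each other (0.504), BHLHE40 being the 18th nearest of 3479 to GADD45A and GADD45A the 16th nearest to BHLHE40. SLC38A2 and GADD45A were the farthest apart (3.03). Of the 2 transcripts nearest to each gene, several had few reads in all, as NDUFAF4 with 42 and SUV39H1 with 31, so their places in this order are loose.

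**Figure D4:**
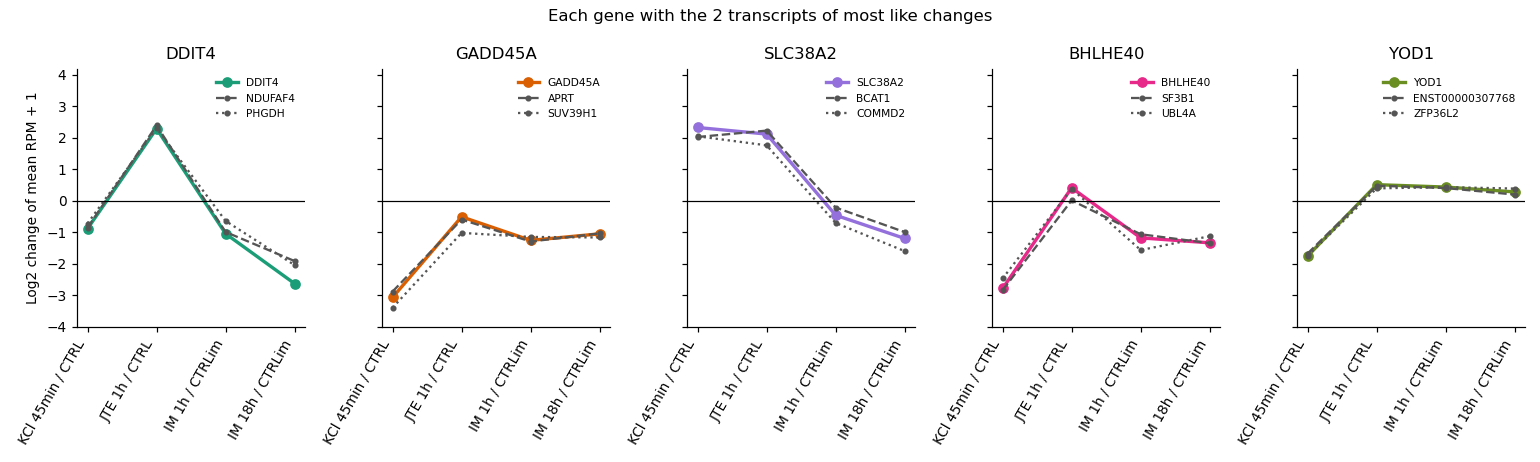
Log2 change of mean RPM + 1 (vertical axis) in 4 comparisons for each of the 5 genes (coloured) and the 2 transcripts nearest to it (grey). DDIT4 has its peak in JTE 1h, SLC38A2 is high in both KCl 45min and JTE 1h, GADD45A and BHLHE40 are lowest in KCl 45min, and YOD1 is near 0 except in KCl 45min.

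The stress pathways around the 5 genes were followed with 8 lists that hold 196 other genes, of which 184 were in the table with 9391 reads. Here a test was run, and a gene counts as called at an adjusted p under 0.05 in the quasi-likelihood test of edgeR, adjusted by Benjamini-Hochberg over all tested transcripts. The lists were chosen with earlier results of these data known, so the calls are not independent of those results. Few listed genes had enough reads. In KCl 45min against CTRL, 16 were tested and 2 were called, where 25.1% of all tested transcripts were. Both were among the 4 immediate early genes tested, and both rose. Over all 378 tested transcripts, 16 were called higher and 79 lower. EGR1, a zinc finger transcription factor, gave 10, 10 and 39 reads in KCl 45min and 1, 0 and 0 in CTRL. The pooled ratio was 34.1 (95% exact interval 5.89 to 1371), the adjusted p 7.42e-05, and over the alternatives in which it was tested the adjusted p lay between 2.01e-05 and 0.00398. Without KCl 45min replicate 3 both EGR1 and BTG1 were under the minimum of 30 reads and not tested. BTG1, an antiproliferative gene, gave 5, 10 and 25 reads against 0, 6 and 0, with overlapping libraries (log2 fold change 1.93, SE 0.738, adjusted p = 0.0442 from edgeR, 0.00163 to 0.334 over the alternatives). Its call was lost without CTRL replicate 1 (adjusted p = 0.245), CTRL replicate 3 (0.160) or KCl 45min replicate 2 (0.229).

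The integrated stress response list, targets of ATF4, had 6 members tested in KCl 45min against CTRL, 11 in JTE 1h against CTRL and 6 in IM 1h against CTRLim, and none was called. The osmotic stress list had 2, 2 and 3 members tested there, and none was called. The lists of p53 targets, hypoxia, mTORC1 signalling, p97/VCP and the gene families had at most 3 members tested in any of these comparisons, again with none called. In JTE 1h against CTRL, 25 listed genes were tested over all lists and edgeR called 0, with 3 at an unadjusted p under 0.05. Of all 969 transcripts 0.103% were called. In that comparison the listed genes had a median log2 fold change of 0.74, beside 0.49 over all tested. In IM 1h against CTRLim, edgeR called 0 of 21 listed genes, with 3 at an unadjusted p under 0.05, where 1.52% of all were called. DESeq2 called 0 in both as well.

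At 18 h of imatinib 28 listed genes were tested against CTRLim and 3 were called, all lower, where 14.1% of all were called, 5.19% higher and 8.95% lower. They were 1 of 9 tested ATF4 targets, 1 of 5 osmotic genes and 1 of 6 immediate early genes. The direction of the listed calls depended on the scaling. With mapped reads as the library total, 3 were called higher and 1 lower, and with readthrough reads as the total or TMM scaling 3 higher and 2 lower. The 3 higher were each time DUSP1, a phosphatase of MAP kinases, BTG2 and EPRS1, with adjusted p between 0.0379 and 0.0475 in edgeR. HSPA8, a constitutive chaperone of the HSP70 family, had 63.1 ± 1.76 RPM (n = 3) in IM 18h and 124 ± 9.76 RPM (n = 2) in CTRLim (log2 fold change -1.01, SE 0.231, adjusted p = 0.00145 from edgeR, 0.000285 to 0.331 over the alternatives). HSPA8 has processed pseudogenes close to it in sequence, so its count is uncertain. AARS1, the alanyl-tRNA synthetase, fell by 1.47 on the log2 scale (SE 0.489, adjusted p = 0.0325 from edgeR, 0.0204 to 0.219 over the alternatives). MCL1, an anti-apoptotic BCL2 relative, fell by 1.18 (SE 0.412, adjusted p = 0.0436 from edgeR, 0.0238 to 0.267 over the alternatives).

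AARS1 and MCL1 were both called on few reads. AARS1 had 6, 8 and 6 reads in IM 18h and 4, 7 and 9 in CTRLim, and its call was lost without CTRLim replicate 1, 2 or 3 (adjusted p = 0.0618, 0.0658 and 0.174 from edgeR) or IM 18h replicate 3 (0.0815). With CTRL as the control it was under the minimum and not tested. MCL1 had 11, 12 and 9 reads and 6, 11 and 9, and its call was lost without CTRLim replicate 1, 2 or 3 (adjusted p = 0.105, 0.140 and 0.0973 from edgeR) or IM 18h replicate 2 or 3 (0.0737 and 0.130). With CTRLim replicates 2 and 3 as 1 sample neither was called (adjusted p = 0.0536 for AARS1 and 0.0651 for MCL1 from edgeR), which left HSPA8 as the 1 listed call. None of the 3 was in the lists of p53 targets, hypoxia, mTORC1 signalling, p97/VCP or the gene families, which had between 1 and 3 members tested here and none called.

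Between the imatinib times 35 listed genes were tested and 6 were called, 3 higher and 3 lower at 18 h, where 18.3% of all were called, 4.19% higher and 14.1% lower. They were 2 of 2 tested p53 targets, 1 of 11 ATF4 targets, 1 of 6 osmotic genes, 1 of 6 immediate early genes and 1 of 2 family members. With the 3 IM 1h libraries as 1 sample, the calls of KLF10 and HSPA8 remained, and BTG2, SLC38A1, TRIAP1 and EPRS1 were not called (adjusted p = 0.0554, 0.0767, 0.0868 and 0.0939 from edgeR). In the fit on all 18 libraries KLF10 alone was called. KLF10, a transcription factor induced by TGF-beta, rose from 3.65 ± 2.92 to 18.2 ± 3.58 RPM (n = 3 each, log2 fold change 2.35, SE 0.499, adjusted p = 0.000175 from edgeR, 3.17e-05 to 0.0158 over the alternatives). BTG2, an antiproliferative p53 target, rose from 1.82 ± 1.60 to 8.81 ± 3.47 RPM (log2 fold change 2.05, SE 0.655, adjusted p = 0.0178 from edgeR, 0.00892 to 0.116 over the alternatives), and was not called without IM 1h replicate 2 (0.116) or 3 (0.0864), nor tested without any 1 of the IM 18h libraries, where it was under the minimum. EPRS1, the glutamyl-prolyl-tRNA synthetase, rose from 4.89 ± 0.396 to 13.9 ± 8.24 RPM (log2 fold change 1.40, SE 0.494, adjusted p = 0.0341 from edgeR, 0.0123 to 0.239 over the alternatives). HSPA8 fell by 0.92 on the log2 scale (SE 0.166, adjusted p = 8.76e-06 from edgeR, 4.96e-06 to 0.180 over the alternatives).

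SLC38A1, the paralogue and downstream neighbour of SLC38A2, gave 8, 8 and 10 reads at 1 h and 2, 12 and 1 at 18 h. Its libraries did not overlap in RPM, with means of 12.8 ± 1.07 and 4.09 ± 4.65 RPM (n = 3 each). It was called lower at 18 h (log2 fold change -1.57, SE 0.500, adjusted p = 0.0178 from edgeR, 0.0293 to 0.430 over the alternatives). The call was lost without IM 1h replicate 2 or 3 (adjusted p = 0.0912 and 0.119 from edgeR) or IM 18h replicate 1 or 3 (0.0536 and 0.143), and without IM 18h replicate 2 it was under the minimum. TRIAP1, a p53-induced inhibitor of apoptosis, fell by 1.25 (SE 0.436, adjusted p = 0.0313 from edgeR, 0.0154 to 0.506 over the alternatives). It was not called without IM 1h replicate 2 or 3 (0.0966 and 0.121) or IM 18h replicate 1 or 2 (0.0545 and 0.0972).

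Other relatives of the 5 genes had few readthrough reads. Of the 23 listed family members 19 were in the table, with 458 reads in all, of which 154 were on OTUD6B, a deubiquitinase of the family of YOD1, and 83 on SLC38A1. GADD45B, a paralogue of GADD45A, had 1 read in the 18 libraries. OTUD6B ranged from a mean of 6.61 ± 3.91 RPM in CTRL (n = 3) to 20.1 ± 5.35 RPM in IM 1h (n = 3), and was not called in any comparison in which it was tested. The ends of this range come from different library sets, and CTRLim had 16.6 ± 1.20 RPM (n = 2). Between the untreated groups 1 of 9 tested listed genes was called, where 10.6% of all were. SARS1, the seryl-tRNA synthetase, had 20.8 ± 8.55 RPM (n = 3) in CTRL and 61.2 ± 18.1 RPM (n = 2) in CTRLim (log2 fold change 1.40, SE 0.402, adjusted p = 0.0325 from edgeR, 0.0102 to 0.262 over the alternatives). It was not called without CTRL replicate 1 (0.144) or CTRLim replicate 1, 2 or 3 (0.0821, 0.0791 and 0.0744), nor with CTRLim replicates 2 and 3 as 1 sample (0.0917). In KCl 45min SLC38A1 gave 0, 8 and 9 reads and in CTRL 0, 3 and 0, too few for the fit, while SLC38A2 gave the 56 and 6 described above.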

How the data were processed

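The authors trimmed reads with cutadapt 3.4, aligned them to GRCh38 with minimap2 2.22, and collapsed duplicates by molecular identifier (UMICollapse 1.0.0). They dropped polyadenylated and non-unique reads, and deposited raw counts of readthrough reads per transcript. The deposited table holds whole-number counts, neither normalized nor pooled.

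Counts were divided by the library reads listed by the study after its filters and multiplied by 1000000 (RPM). Transcripts with at least 30 reads over the libraries of a comparison were fitted with edgeR 4.0.16 (glmQLFit, glmQLFTest, R 4.3.3) with these totals as library sizes, and called at an adjusted p under 0.05 (Benjamini-Hochberg). DESeq2 1.42.0 was an alternative. The scripts were tested on simulated data. Standard errors are |log2 fold change| divided by the root of F. Genes under the minimum are given by pooled ratios with 95% exact intervals. Intervals cover counting error only. Scripts ran in Python 3.11.15 (numpy 2.4.6, pandas 2.3.3, matplotlib 3.10.9, scipy 1.17.1).

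The 5 genes, the lists and the comparisons were chosen with earlier results of these data known. Named beside the 5 genes are, per comparison, up to 5 called listed genes with the smallest adjusted p whose libraries did not overlap, for each gene the 2 transcripts with the most like changes, and family relatives. BTG1, DUSP1, EPRS1 and SARS1 fall outside this rule and were named after their values were seen. Transcripts were matched to GENCODE 44 by identifier (12704 of 13051). Alternatives changed the library total, scaling, read minimum, test, libraries in the fit and control, left out each library in turn, and took the replicate number as a block. Counting close replicates as 1 sample, and CTRLim against CTRL, were added after the data were seen. Gene body reads were not used here, and 1 of the 5 sequences behind the ends is not reported here.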

Additional observations from a re-analysis of the deposited data

Results flagged for a closer look

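Between 1 h and 18 h of imatinib 6 listed stress genes were called different, by edgeR's quasi-likelihood test of IM 18h against IM 1h with Benjamini-Hochberg adjustment and the IM 1h libraries taken as 3 samples. With these libraries as 1 sample, since no pair of them differed detectably beyond sampling noise, 2 were called, KLF10 and HSPA8. BTG2, SLC38A1, TRIAP1 and EPRS1 then had adjusted p = 0.0554, 0.0767, 0.0868 and 0.0939 (edgeR). The fit on all 18 libraries called KLF10 alone. The log2 fold change was 2.35 for KLF10 (adjusted p = 0.000175, edgeR), 2.05 for BTG2 (0.0178) and 1.40 for EPRS1 (0.0341), which were higher at 18 h. It was -0.92 for HSPA8 (8.76e-06), -1.57 for SLC38A1 (0.0178) and -1.25 for TRIAP1 (0.0313), which were lower. EPRS1 gave 3, 3 and 4 reads at 1 h and 22, 12 and 12 at 18 h, and its call was lost without IM 1h replicate 1, 2 or 3 (adjusted p = 0.102, 0.0967 and 0.144, edgeR) or IM 18h replicate 1 (0.239). None of the 5 genes described above had all its imatinib libraries on one side of CTRLim at 1 h and on the other at 18 h.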

How the results depend on the processing

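Direction depended on the untreated group. With the other untreated group as control, the median log2 fold change of the 5 genes was -3.94 for KCl 45min, -1.76 for JTE-607, 1.54 for imatinib at 1 h and 0.40 at 18 h, and with all 6 untreated libraries -3.11, -0.58, -0.048 and -0.36. With the other untreated group, IM 1h had log2 fold changes of 1.77 for DDIT4, 0.12 for GADD45A and 0.0044 for BHLHE40, IM 18h of 0.17 for DDIT4, 0.34 for GADD45A and 2.85 for SLC38A2, and KCl 45min of -1.53 for SLC38A2 (-0.63 with all 6). The library set and the control change together here. No other alternative turned a change whose libraries did not overlap.

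With readthrough reads as the library total (rescaled to the same sum), mean levels moved by more than 1 SD to 4.42 RPM for GADD45A and 52.5 for SLC38A2 in KCl 45min, 30.9 for GADD45A and 63.2 for SLC38A2 in IM 1h, 38.2 for BHLHE40 in CTRLim and 65.9 for YOD1 in IM 18h (65.8 with mapped reads). The median of the 5 genes became -1.15 in IM 1h and 2.03 in CTRLim against CTRL, and with TMM scaling -1.17 and 1.86. Leaving out 1 library gave -1.31 to -0.74 for IM 1h. The minimum of reads, the test, the fit on all libraries and the block do not enter the levels and medians. TMM moved the median of all tested transcripts from -0.39 to 0.06 in KCl 45min, from 0.49 to 0.04 in JTE 1h, from -0.30 to -0.01 between the imatinib times and from 0.31 to -0.07 between the untreated groups. Calls higher and lower moved from 16 and 79 to 25 and 50 in KCl 45min, from 72 and 124 to 95 and 110 in IM 18h, from 72 and 243 to 111 and 92 between the imatinib times and from 48 and 2 to 23 and 24 between the untreated groups.

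In KCl 45min 95 transcripts were called, against 256 with a minimum of 10 reads, 62 and 47 with DESeq2 on library reads and on its own size factors, 274 with all 6 untreated libraries and 241 with the other untreated group. Leaving out 1 library gave 41 to 75. In JTE 1h 1 was called, against 0 with readthrough reads as the total, with TMM or with a minimum of 1 read, 30 in the fit on all 18 libraries, 23 with all 6 untreated libraries, 93 with the other untreated group, and 0 to 69 without 1 library (69 without JTE 1h replicate 1). In IM 1h 15 were called, against 9 with a minimum of 1 read, 4 and 7 with DESeq2, 5 in the fit on all libraries, 2 with all 6 untreated libraries, 202 with the other group, 6 with the IM 1h libraries as 1 sample and 8 to 22 without 1 library. In IM 18h 196 were called, against 105 and 78 with DESeq2, 113 in the fit on all libraries and 116 to 189 without 1 library. Between the imatinib times 315 were called, against 203 with TMM, 108 and 63 with DESeq2, 112 in the fit on all libraries, 155 with IM 1h as 1 sample and 174 to 273 without 1 library. Between the untreated groups 50 were called, against 31 with readthrough reads as the total, 86 with a minimum of 10 reads, 26 and 20 with DESeq2, 21 with CTRLim replicates 2 and 3 as 1 sample and 18 to 81 without 1 library. The cause of these changes was not tested.

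Listed genes called numbered 2 in KCl 45min, against 5 with a minimum of 10 reads, 1 with either DESeq2 scaling and 0 to 2 without 1 library. In JTE 1h 0 were called, against 1 in the fit on all libraries or with all 6 untreated libraries, 3 with the other group and 0 to 2 without 1 library. In IM 1h 0 were called, against 1 with TMM and 2 with the other group. In IM 18h 3 were called, 0 higher and 3 lower, against 3 higher and 1 lower with mapped reads, 3 higher and 2 lower (5 in all) with readthrough reads as the total, with TMM or with the other group, 1 with a minimum of 10 or 1 read, with DESeq2 or with CTRLim replicates 2 and 3 as 1 sample, 0 in the fit on all libraries and 1 to 5 without 1 library. Between the imatinib times 6 were called, against 2 with a minimum of 1 read, 2 and 1 with DESeq2, 1 in the fit on all libraries, 2 with IM 1h as 1 sample and 2 to 6 without 1 library. Between the untreated groups SARS1 alone was called, against 0 with readthrough reads as the total, TMM, a minimum of 1 read, DESeq2, the fit on all libraries and CTRLim replicates 2 and 3 as 1 sample, and 0 to 1 without 1 library. The cause was not tested.

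Labels give replicate numbers to every group, but in no comparison did all 3 same-numbered pairs of libraries deviate together (correlations between -0.22 and 0.30). With the replicate number as a block, 100 transcripts were called in KCl 45min, 4 with JTE-607, 10 and 195 with imatinib at 1 h and 18 h, and 274 between the imatinib times, where 4 of 6, 3 of 6, 2 of 6, 4 of 6 and 3 of 6 libraries correlated best with their own number. Depth limits the 5 genes most in CTRL and KCl 45min, where a count of 0 over the pooled libraries would allow up to 2.91 and 1.69 RPM. None of the 5 genes had such a pooled count. The zeros in these groups were all in KCl 45min replicate 2, where 3 of the genes had no read in 313838 library reads. A count of 0 in a single library allows more than the pooled bound. These bounds cover counting error only.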
